A study of Cryptomeria japonica with 72 samples.

Results

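The targets described are those whose best Arabidopsis match is a WRKY, NAC, MYB or ERF protein, the families that hold many of the transcription factors answering wounding, drought and ethylene. They are carried by microarrays of cuttings of Cryptomeria japonica, the Japanese cedar, while adventitious roots formed. Members were taken by the wording of that match from the study's lists of varying targets, kept by expression cluster, and from its list of targets with the largest first principal component coefficients. Of the 19304 targets on the array, 53 carried the words. Of these, 49 matched a transcription factor with an E value below 1e-05: 12 WRKY, 7 NAC, 16 MYB and 14 ERF targets. Another 3 had no usable match, and 1 matched a translation release factor whose symbol has the same letters. Those 4 are given apart at the end. The lists were made on these same arrays, and the copy used here holds only the first clusters of each. The clusters group targets by their course on these arrays, so that the counts and directions counted below are no independent evidence. A target carries the name of its match, and 10 names are carried by 21 targets, which may be separate genes or pieces of 1 transcript.

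WRKY proteins bind the W-box of promoters and are known for defence, wound responses and leaf senescence. NAC proteins act in organ boundaries, in wall formation and in responses to abscisic acid and water loss. ERF proteins bind the GCC-box and lie downstream of ethylene, some of them as activators and others as repressors, and a separate ERF group responds to lack of oxygen. The MYB family is wider, with members that govern phenylpropanoid synthesis, cuticle and trichome formation and stress responses. Excision of a cutting wounds its base, cuts its water supply and is followed by new roots from the base only. All roles given below are those of the Arabidopsis proteins.

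All cuttings came from trees of 1 plus-tree clone, Tsukuba 1, and the groups differ by plant part and time, with no transgene or added agent in the labels. Each of 8 times was sampled in 3 parts with 3 arrays per group, which made 24 groups and 72 arrays. The parts were the base of the stem, which stood in the soil and bore roots at the last time, the middle of the stem, and needles, taken as short shoots that included their stem. Times were 0 hpe (hours post excision, the untreated control), 0 hpi and 3 hpi (hours post insertion into Kanuma soil in a greenhouse), 1 dpi and 3 dpi (days), and 1, 3 and 6 wpi (weeks). The paper places 0 hpi hours after excision, so a change from 0 hpe to 0 hpi spans the time between cutting and insertion. The labels number the replicates but do not say whether the parts of 1 number came from the same cutting, and p-values measure the spread between these samples.

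Between 66% and 86.9% of spots were well above background on the arrays, and the 75th percentile of the signal ran from 162 to 1764 intensity units. Levels are log2 signals relative to that percentile, so a level of 0 equals it. The dimmest arrays were base 3 dpi 3 (162), base 1 wpi 3 (177) and base 1 wpi 2 (200). At 0 hpe, arrays of base and middle with the same number were much alike: the scaled median absolute deviation of their differences over all targets was 0.211 to 0.269 (log2), against 0.42 to 0.775 for different numbers, although the arrays lay on different slides. Their deviations from the group means correlated at 0.741 to 0.945 across targets, which are not independent replicates. The changes of base and middle against 0 hpe therefore carry the same deviations of their controls. The 5 green tissue markers, the check on the labelled parts, had a mean level of 3.00 to 3.48 at the base at 0 hpe and 3.66 to 3.84 in needles, and -2.46 to -0.96 at the base at 6 wpi, while 21 targets described as cellulose synthase or laccase, of primary as well as secondary walls, ran from -1.83 to 0.04 at the base and from -1.97 to -1.47 in needles at 0 hpe. In such samples fewer cells of a type and less RNA per cell cannot be told apart.

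At the base, most members had changed by 0 hpi, and nearly all of those changes were rises. Of the 49 members, 15 were listed in a cluster that the study described by a marked peak at 0 hpi common to the parts. For those members a rise at 0 hpi, here and in the other parts, is the pattern by which they were chosen. A call required an adjusted p below 0.05 in limma, over all targets tested, together with a change of at least 1 log2 unit either way. Of the 47 members tested at the base, 25 rose and 1 fell at 0 hpi, where 11.7% of all targets tested and 19.6% of the targets on the study's lists were called. The median member differed by 1.52 (log2), against -0.12 for all targets. At 3 hpi 28 had risen and 7 had fallen, with 30.9% of all targets and 43.4% of the listed ones called. The members called then numbered 35 at 1 dpi (30% and 37.8%), 31 at 3 dpi (29% and 32.1%), 30 at 1 wpi (31.5% and 31.8%) and 26 at 3 wpi (28.7% and 29.3%), both backgrounds in that order. By 6 wpi the counts were 19 and 4, with 30.2% and 29.2% as the background. At every time from 0 hpi to 6 wpi, 15 members stood higher at the base than at 0 hpe, as did 2.27% and 4.38% of all and of listed targets: WRKY11, WRKY14, WRKY20 (reCj12254) and WRKY55, RD26, ATAF1, NAC036 and NAC025 (reCj24436), MYB73, and the ERF-1 targets reCj25854 and reCj27288 with both ERF8 targets, ERF3 and ERF9 (reCj31365). The MYB73 call at 0 hpi was lost without base 0 hpe replicate 2 or 3 or any 1 of the base 0 hpi arrays (0.77 to 1.13), and that at 6 wpi without base 0 hpe replicate 3 (0.94). The base arrays of 3 hpi, 1 wpi, 3 wpi and 6 wpi shared no slide with those of 0 hpe. With slide as a fixed block 30 of the 47 members were called at 3 hpi. At 6 wpi 6 were: WRKY6, WRKY14, WRKY55, RD26 and ERF3 higher and WRKY51 lower. Background shares in this report come from the main fit, which had no slide block. Counts with a block or another filter have none beside them and are not to be read against those shares. With every spot required to be well above background, 35 members were tested and 13 of them were called at 6 wpi. At 0 hpi both slides in question held both times, and all 26 called members kept their direction within each slide. These are the arrays on which the calls were made, and 1 of the slides held a single array of each time. The agreement is therefore no separate check on slide.

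The middle and the needles had most of their calls at the early times. In the middle, 22 members rose and 3 fell at 0 hpi (9.97% of all targets and 17.2% of listed ones called), and 22 of the risers had also risen at the base (5.42% and 11.6% of all and of listed targets did both). The count of members called in the middle at 0 hpi fell to 13 when middle 0 hpi replicate 3 was left out, to 16 with only the arrays compared and to 11 with slide as a fixed block. All middle 0 hpe arrays lay on the same slide, which held no middle array of 0 hpi or 3 hpi. At 3 hpi 25 had risen and 6 had fallen (19.8% and 31.1%). Calls then dwindled from 25 at 1 dpi (21.3% and 26.8%) to 17 at 3 dpi (9.22% and 13.5%) and 7 at 1 wpi (4.22% and 4.93%). At 3 wpi 1 member was called (0.118% and 0.085%), and at 6 wpi 3 were, all higher (1.85% and 2.42%): RD26, ERF71 and ERF-1 (reCj27288). Leaving out middle 0 hpe replicate 1 or middle 6 wpi replicate 3 raised this last count to 5 and 8, and leaving out middle 6 wpi replicate 1 or 2 lowered it to 1. In needles, 20 of 48 members rose and 3 fell at 0 hpi (10% and 13.6%), and 18 members rose in all 3 parts (3.34% and 7.56%). By 1 dpi 5 needle calls were left (4% and 5.11%), with 3 at 3 dpi (1.54% and 1.82%), 2 at 1 wpi (1.52% and 1.92%) and 8 at 3 wpi (10.3% and 16.3%), and by 6 wpi there were 11 (13.5% and 20.7%), 6 higher and 5 lower. That count was 2 with slide as a fixed block (WRKY55 and NAC036) and 7, with 5 higher and 2 lower, after normexp background correction. Needle arrays of 3 hpi, 1 wpi, 3 wpi and 6 wpi shared no slide with those of 0 hpe.

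**Figure D1:**
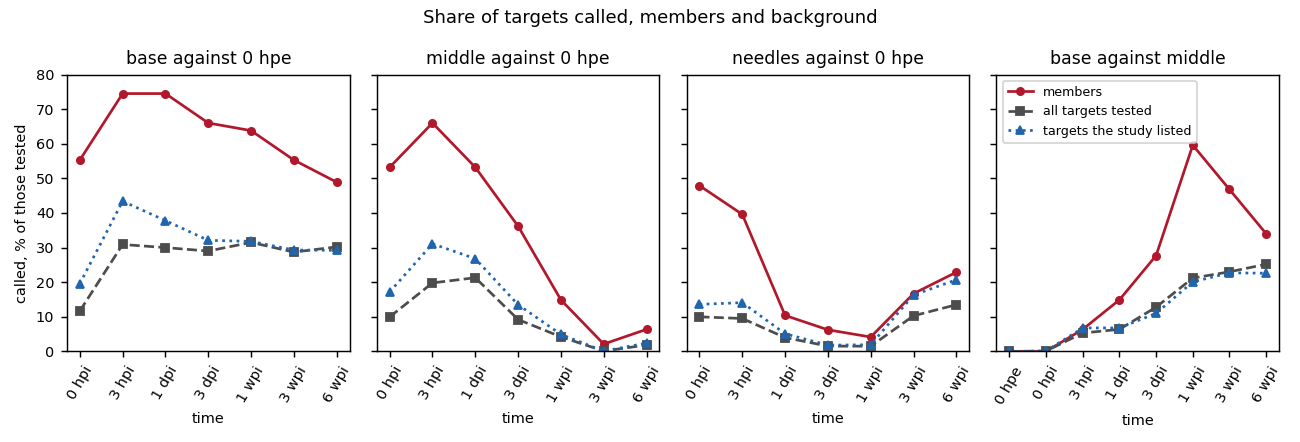
Share of members called (red circles), of all targets tested (grey squares) and of the targets on the study's lists (blue triangles), in percent of those tested, by time for base, middle and needles against 0 hpe and for base against middle. The members lie above both backgrounds at the base at every time and in the middle all 3 shares are low by 3 wpi.

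**Figure D2:**
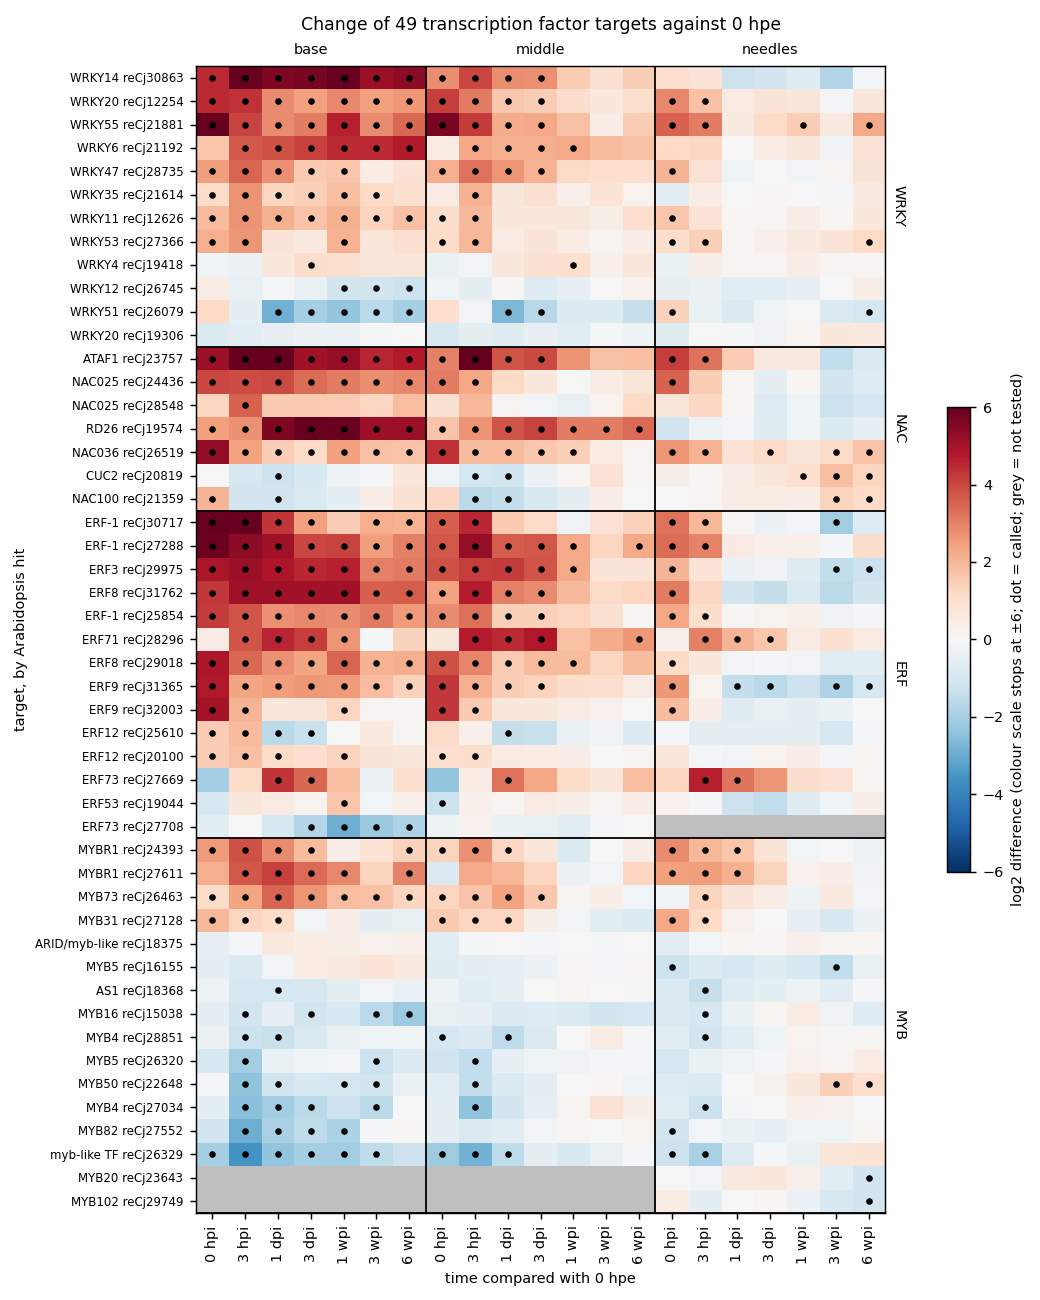
Log2 difference of each of the 49 transcription factor targets from 0 hpe, by family (rows) and by part and time (columns), on a colour scale that stops at 6 in either direction. Dots mark calls and grey cells mark targets not tested in that part; WRKY14, ATAF1 and RD26 stay red at the base through 6 wpi, and RD26 does so in the middle too.

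Of the 12 WRKY targets, 7 rose at the base at 0 hpi and 8 at 3 hpi, and none fell at either time. Of all and of listed targets 7.19% and 14.3% were called higher at 0 hpi and 14.8% and 26.2% at 3 hpi, and 4.5% and 5.27% and then 16.1% and 17.2% lower, which is the background for each family. WRKY55 gave -4.41, -3.21 and -4.79 on the 3 base arrays at 0 hpe and 2.70, 3.54 and 2.99 at 0 hpi. It had the largest rise of any member at that time, 7.21 ± 0.60 (log2 difference ± SE, 3 arrays per group; adjusted p = 1.69e-11), with every array after excision above every control array. In the middle its levels were -3.69, -4.56 and -3.61 and then 1.49, 1.58 and 2.12, and in needles -3.94, -3.56 and -4.18 and then -0.18, 0.37 and -1.19. The rise was 5.69 ± 0.60 in the middle and 3.56 ± 0.37 in needles, and the needle rise was smaller than that of the base by 3.65 (adjusted p = 0.00141 for the difference). WRKY14 read -2.92, -4.46 and -5.89 at the base at 0 hpe, 1.74, 2.06 and 2.15 at 3 hpi and 1.16, 1.28 and 0.42 at 6 wpi. At 0 hpe it was well above background on 2 of the 3 base arrays, as were WRKY6, MYBR1 (reCj27611) and ERF8 (reCj31762), so that the sizes of their differences from 0 hpe at the base rest in part on signals near background. It was still above the control at 6 wpi (5.38 ± 0.82, adjusted p = 3.49e-06), and in needles its differences ran from -1.77 to 1.03 with no call.

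WRKY6, a regulator of senescence and phosphate responses, climbed later. Its base levels were -2.25, -3.93 and -5.66 at 0 hpe, -2.49, -2.49 and -1.92 at 0 hpi, -0.24, -0.54 and -0.02 at 3 hpi and 0.56, 1.43 and 0.47 at 6 wpi. The 0 hpi difference was not called (1.65 ± 0.70, adjusted p = 0.0783), and the later ones went from 3.68 at 3 hpi to 4.77 at 6 wpi. WRKY12, which in Arabidopsis stems restrains secondary wall formation in the pith, and WRKY51 went the other way. WRKY12 read 0.32, 0.56 and 0.89 at 0 hpe and -0.74, -0.47 and -0.85 at 6 wpi at the base, a fall of 1.27 (log2; adjusted p = 0.00117; -1.01 and not called with slide as a fixed block). WRKY51 read 1.33, 1.22 and -0.05 at 0 hpe, 1.88, 2.50 and 1.69 at 0 hpi and -2.02, -2.17 and -1.95 at 1 dpi. It was called lower at the base from 1 dpi (-2.88) to 6 wpi (-1.98), and at 0 hpi its difference of 1.19 missed the threshold (adjusted p = 0.0894) while that of needles, 1.39, passed it. WRKY53, a senescence regulator, gave -1.32, -1.08 and -1.53 at 0 hpe and 0.79, 2.03 and 1.22 at 3 hpi at the base. It rose there by 2.66 ± 0.38 and its calls at later base times were limited to 1 wpi. The second WRKY20 target, reCj19306, was called in no part at any time.

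WRKY20, WRKY47, WRKY11 and WRKY35 rose early, and WRKY4 did not. WRKY20 (reCj12254) was 4.49 ± 0.52 above the control at 0 hpi at the base and 2.62 above it at 6 wpi, with early rises of 4.14 in the middle and 2.87 in needles. WRKY47 rose by 2.52 ± 0.47 at 0 hpi and 3.49 ± 0.47 at 3 hpi at the base, was called there through 1 wpi, and rose in needles at 0 hpi only (2.05). WRKY11, which tempers basal resistance, rose by 1.90 ± 0.34 and 2.69 ± 0.34 at the same base times. WRKY35 peaked at 3 hpi (2.71 ± 0.40) and was called at no time in needles. WRKY4 was called once in each stem part, at 3 dpi at the base (1.04) and at 1 wpi in the middle (1.02).

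Among the 7 NAC targets 5 rose at the base at 0 hpi. ATAF1, a stress-responsive NAC protein linked to abscisic acid, gave -5.15, -3.30 and -2.63 on the base arrays at 0 hpe, 0.68, 1.95 and 1.73 at 0 hpi and 4.29, 4.20 and 4.21 at 3 hpi. The groups did not overlap, and the difference at 3 hpi, 7.93 ± 1.06, adjusted p = 1.84e-07, was the largest of any member in any comparison with 0 hpe. The middle went from -3.64 ± 1.21 (mean ± SD, n = 3) to 3.57 ± 0.43 at 3 hpi, a difference of 7.21 ± 1.06. Needles rose by 4.15 ± 0.94 at 0 hpi and by 3.26 ± 0.94 at 3 hpi, and stood -0.88 from the control at 6 wpi with no call. NAC036 gave -2.27, -0.80 and -1.01 at 0 hpe and 3.69, 4.15 and 4.05 at 0 hpi at the base. It peaked at 0 hpi in each part, with differences of 5.32 ± 0.40 for base, 4.40 ± 0.40 for middle and 2.67 ± 0.23 in needles.

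RD26, a NAC protein of abscisic acid and dehydration responses, built up over days. Its base levels were -4.45, -3.20 and -3.97 at 0 hpe, -1.74, -0.98 and -1.49 at 0 hpi, 2.25, 2.22 and 1.96 at 3 dpi and 1.79, 1.42 and 0.56 at 6 wpi. The difference grew from 2.47 at 0 hpi to 6.01 at 3 dpi and was 5.13 ± 0.53, adjusted p = 9.11e-09 at 6 wpi. It was also called higher in the middle at every time, with 3.38 ± 0.53 at 6 wpi, the 1 member of which this held. Its needle levels were -1.09, 0.51 and -1.31 at 0 hpe and -1.88, -1.72 and -1.91 at 0 hpi, a difference of -1.21 ± 0.46, adjusted p = 0.0609 that was not called. NAC100 and CUC2, relatives that share control by a microRNA and, for CUC2, act at organ boundaries, behaved apart from the stress-linked ones. NAC100 read 2.74, 0.93 and 0.07 at the base at 0 hpe, 3.20, 3.74 and 2.89 at 0 hpi and 0.07, 0.59 and -0.41 at 1 dpi, called higher at 0 hpi (2.03) and lower at 1 dpi (-1.16). CUC2 was called lower at 1 dpi at the base (-1.24) and in the middle (-1.12). The second NAC025 target, reCj28548, was called at 3 hpi at the base (3.53 ± 0.83) and in no other comparison with 0 hpe. The 3 control arrays of NAC100 spanned 0.07 to 2.74.

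In the ERF family 10 of 14 targets rose at the base at 0 hpi and 11 at 3 hpi, with none lower, and the family's median difference was 4.22 at 0 hpi. Its mean level went from -1.67 at 0 hpe to 1.23 at 0 hpi, and that of the NAC family moved alike, from -1.56 to 1.34. The ERF-1 targets match an activator of the GCC-box. The target reCj30717 gave -4.20, -4.51 and -5.46 at the base at 0 hpe, 1.79, 2.28 and 1.90 at 0 hpi, 2.56, 2.68 and 3.35 at 3 hpi and -3.58, -1.54 and -1.72 at 3 dpi. It rose by 6.71 ± 0.88 at 0 hpi (adjusted p = 3.72e-07), by 7.58 ± 0.88 at 3 hpi and by 2.44 ± 0.88 at 3 dpi. The target reCj27288 gave -0.79, -0.56 and -1.37 at 0 hpe and 4.82, 5.45 and 4.69 at 0 hpi, a rise of 5.89 ± 0.56, and held 3.03 ± 0.56 at 6 wpi. A rise of the third, reCj25854, went from 4.20 at 0 hpi to 2.58 at 6 wpi.

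ERF3, ERF8 and ERF9, which match repressors of the same promoter element, rose with the activators. ERF3 read -1.95, -2.07 and -1.68 at 0 hpe, 3.09, 3.02 and 2.93 at 0 hpi and 1.21, 1.69 and 0.69 at 6 wpi at the base. Its rise was 4.91 ± 0.57 at 0 hpi, 5.14 ± 0.57 at 3 hpi and 3.10 ± 0.57 at 6 wpi. ERF9 (reCj32003) rose by 5.01 ± 0.27 at 0 hpi, when the arrays gave 5.64, 5.72 and 5.36 against 0.39, 0.99 and 0.30 at 0 hpe, and was back at a difference of 0.69 by 1 dpi. The ERF8 targets rose by 4.23 (reCj31762) and 4.92 (reCj29018) at 0 hpi. The ERF12 targets, also matches to a repressor, rose together at 0 hpi (1.49 for reCj20100 and 1.52 for reCj25610) and parted at 1 dpi, when they stood at 1.12 and -1.64. ERF53, a drought and heat responder, was at 0.84, 0.29 and 0.88 in the middle at 0 hpe and -0.40, -0.63 and -0.80 at 0 hpi, lower by 1.28 (adjusted p = 0.00406).

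ERF71 and ERF73 match the group that in Arabidopsis is induced by low oxygen, and their course differed from that of the other ERF targets. ERF71 read -1.87, 0.10 and -3.05 at the base at 0 hpe, -1.99, -0.55 and -0.75 at 0 hpi and 3.11, 3.13 and 2.71 at 1 dpi. It showed no called change at 0 hpi (0.51 ± 0.76, adjusted p = 0.645) and differences of 3.78 ± 0.76 at 3 hpi and 4.59 ± 0.76 at 1 dpi, and stood at -0.09 at 3 wpi. The middle followed with 4.73 ± 0.76 and 4.47 ± 0.76, and needles with 3.01 ± 0.45 and 2.03 ± 0.45. ERF73 (reCj27669) gave -1.12, -0.36 and -3.41 at 0 hpe, -3.25, -4.18 and -3.60 at 0 hpi and 3.11, 2.87 and 2.05 at 1 dpi at the base and its controls were widely spread. Its difference at 1 dpi was 4.31 ± 0.92, adjusted p = 0.000213, and in needles it peaked at 3 hpi (4.67 ± 0.87). Both were taken from a needle cluster, so that base and middle are comparisons in which they were not chosen. There all 3 such members tested, with MYB73, were called higher at 1 dpi in both parts. Of all and of listed targets 15.5% and 20.8% were called higher for base, and 10.8% and 16% for middle. The 3 came from the same cluster, which groups targets of like course, and base and middle share the deviations of their controls. The calls are therefore not separate from one another. The other ERF73 target, reCj27708, did not share this course. It read 0.15, 0.02 and -0.44 at 0 hpe and -2.77, -2.65 and -3.63 at 1 wpi at the base, where it had fallen by 2.93, while its middle levels at 1 wpi were -0.85, -0.63 and -1.01. At base 1 wpi it was well above background on 2 of the 3 arrays, so the size of that fall rests in part on signals near background.

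In the MYB family rises and falls were mixed. Of the 14 MYB targets tested at the base, 4 rose and 7 fell at 3 hpi, and the family's median difference was -1.05 against 2.70 for WRKY. These 7 were all the members that fell there at that time. Those that rose included both MYBR1 targets, whose match acts in abscisic acid and stress signalling. MYBR1 (reCj24393) gave -3.37, -3.05 and -3.33 at 0 hpe and 0.93, 0.21 and 0.60 at 3 hpi, a difference of 3.83 ± 0.48, adjusted p = 4.85e-08. MYBR1 (reCj27611) gave -4.62, -2.62 and -5.67 at 0 hpe and 0.32, -2.64 and 0.55 at 3 hpi, and although the groups overlapped the difference was called (3.72 ± 0.92, adjusted p = 0.000975); with slide as a fixed block it was not (2.12, adjusted p = 0.232). MYB73 read 0.54, -0.62 and -1.05 at 0 hpe and 2.90, 3.42 and 3.01 at 1 dpi, 3.49 ± 0.40 higher.

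The falling MYB targets were led by reCj26329, whose match is given without a symbol in the study's description. Its base levels were -0.62, -0.50 and -0.67 at 0 hpe, -2.62, -2.62 and -2.47 at 0 hpi and -3.68, -4.88 and -4.06 at 3 hpi. It was the 1 member called lower in all 3 parts at 0 hpi, by 1.97 for base, 2.15 for middle and 1.26 in needles. The middle call was lost without middle 0 hpi replicate 3 (-1.65) and the needle call without needles 0 hpi replicate 2 (-1.14). At 3 hpi the difference at the base was -3.61 ± 0.56, adjusted p = 2.38e-06. The target was then well above background on 2 of the 3 base arrays, so the size of this fall rests in part on signals near background. MYB82, a trichome regulator, read -0.05, 0.20 and -0.04 at 0 hpe and -2.31, -3.94 and -2.45 at 3 hpi, a difference of -2.94 ± 0.44 that was not called with slide as a fixed block (-2.25, adjusted p = 0.0812), and by 3 wpi it was back at -0.10. MYB4, a repressor of phenylpropanoid synthesis, was carried by reCj27034, with base levels of -0.72, -0.35 and -0.41 at 0 hpe and -3.56, -1.75 and -3.64 at 3 hpi (-2.49 ± 0.54), and by reCj28851, which fell by 1.29 at 3 hpi. MYB16, which acts in cuticle formation, fell furthest at 6 wpi (-2.16 ± 0.43, adjusted p = 9.63e-05), a call lost with slide as a fixed block (-3.49, adjusted p = 0.0766). MYB31 rose at 0 hpi in every part, by 1.97 for base, 1.57 for middle and 2.32 for needles, and was called at no time after 1 dpi. Its middle call was lost without middle 0 hpe replicate 3 (1.15) or middle 0 hpi replicate 3 (1.19). MYB5 (reCj16155) and the ARID/myb-like target reCj18375 were called at no time at the base.

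**Figure D3:**
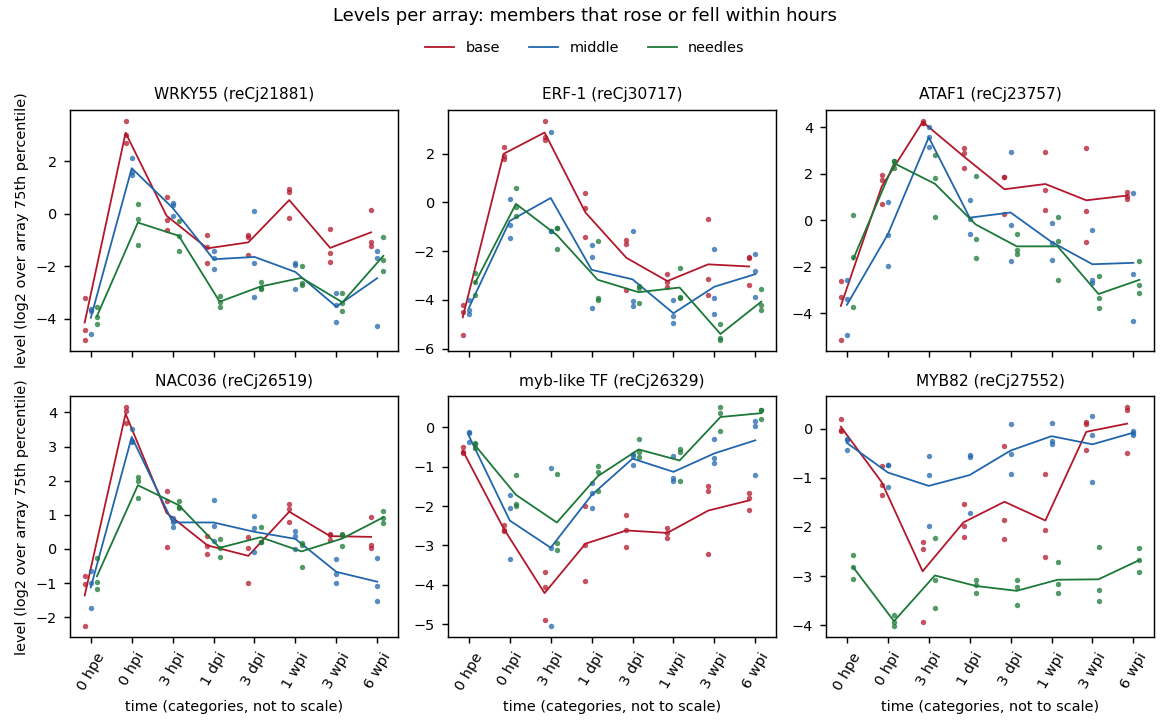
Levels of 6 members on every array (dots, 3 per group) with group means (lines), in log2 units relative to the array's 75th percentile, by time and part (red base, blue middle, green needles). WRKY55, ERF-1 (reCj30717), ATAF1 and NAC036 rise within hours in all parts, and the base arrays of the myb-like target reCj26329 and of MYB82 are lowest at 3 hpi.

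Calls between base and middle came later. No member differed between them at 0 hpe or 0 hpi by limma without pairing, where 0.0084% and 0% of all and of listed targets were called at 0 hpe and 0.109% and 0.127% at 0 hpi, and 1 and 15 members had an unadjusted p below 0.05. The family means per array at 0 hpi were still higher at the base. They were 1.14 to 1.32 against -0.06 to 0.66 for ERF and 1.05 to 1.64 against -0.025 to 0.76 for NAC. For WRKY they were 1.20 to 1.58 against 0.35 to 1.02, and for MYB -1.12 to -0.845 against -1.50 to -1.29. At 3 hpi 3 members were called (5.32% and 6.78%): ERF-1 (reCj30717) was higher at the base and MYB82 and MYB5 (reCj26320) were lower. That count went from 0 without middle 3 hpi replicate 3 to 9 without middle 3 hpi replicate 1, was 1 without base 3 hpi replicate 2 or middle 3 hpi replicate 2, and was 2 higher and 1 lower after normexp. At 1 dpi 7 members differed, all higher at the base (6.38% and 6.8%), at 3 dpi 13 (12.8% and 11%), and at 1 wpi 28, 22 of them higher and 6 lower (21.2% and 20.1%). The 1 wpi count was 18 without base 1 wpi replicate 3, and 3 without both of the dim arrays, which left a single base array; after normexp 22 were higher and 1 was lower. At 3 wpi 22 differed (23% and 22.7%) and at 6 wpi 16, 12 of them higher and 4 lower at the base (25.2% and 22.6%). With only the arrays compared the 6 wpi count was 6, with every spot well above background it was 9 of the 35 members then tested, and with same-numbered arrays paired it was 20. Base and middle arrays lay on different slides throughout, so part and slide cannot be told apart here.

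At 6 wpi, with roots formed, the largest base rises over the middle were in the WRKY family. WRKY14, ATAF1 and RD26 were on the study's list of first principal component coefficients, RD26 on no other list used. The study said that this component seemed to reflect how base and middle differ. Their differences between these parts are therefore no independent support. WRKY14 read 1.16, 1.28 and 0.42 on the base arrays, while the middle arrays gave -2.88, -0.27 and -4.94 (3.65 ± 0.82, adjusted p = 0.000588). WRKY6 read 0.56, 1.43 and 0.47 and -2.75, -0.41 and -4.22 and differed by 3.28 ± 0.70, adjusted p = 0.000315. In both, every base array exceeded every middle array, and in both middle replicate 2 was nearest to the base. The NAC targets NAC025 (reCj24436; 2.69 ± 0.76), RD26 (1.97 ± 0.53), ATAF1 (2.90 ± 1.06) and NAC036 (1.31 ± 0.40) were also higher at the base, though the arrays of RD26 and ATAF1 overlapped between the parts, as did those of ERF3 and ERF8 (reCj31762) below, and the ATAF1 call was lost without base replicate 1 or 2 or middle replicate 1 or 3 (2.92, 2.81, 2.65 and 1.64). Of the ERF targets, ERF3 (2.65 ± 0.57), ERF-1 (reCj25854; 2.52 ± 0.51) and ERF8 (reCj31762; 2.35 ± 0.68) were higher, and the ERF8 call was lost without middle replicate 3 (1.52). WRKY12 stood lower at the base, with -0.74, -0.47 and -0.85 against 1.05, 0.25 and 1.46 (-1.60 ± 0.32, adjusted p = 0.000144), as did ERF73 (reCj27708; -1.58, -2.21 and -2.04 against -0.15, -0.19 and -0.14; -1.78 ± 0.31, adjusted p = 2.84e-05). MYB5 (reCj26320) was lower by 1.97, but it had read -1.28 from the middle already at 0 hpe. Over the same comparison the 5 green tissue markers had a median of -5.45, and their part in these results was not tested.

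The changes themselves were also tested, the base change from 0 hpe to 6 wpi less the middle one, and this called 7 members, 5 with the larger rise at the base and 2 with the larger fall (17.4% of all targets and 14.6% of listed ones called). At the earlier times it called 0 at 0 hpi, 3 hpi, 1 dpi and 3 dpi, with 4, 4, 9 and 10 at an unadjusted p below 0.05 and backgrounds of 0% and 0%, 0.101% and 0.127%, 0.0168% and 0% and 1.94% and 1.21%, then 11 at 1 wpi (11% and 9.18%) and 7 at 3 wpi (14.4% and 11.8%). At 6 wpi the share of members called, 7 of 47, was close to that of all targets. The count was 14 without middle 6 wpi replicate 2, 3 without replicate 1 and 2 without replicate 3, and after normexp it held 3 rises and 2 falls. It was 2 with only the arrays compared and, with every spot well above background, 4 of the 35 members then tested.

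**Figure D4:**
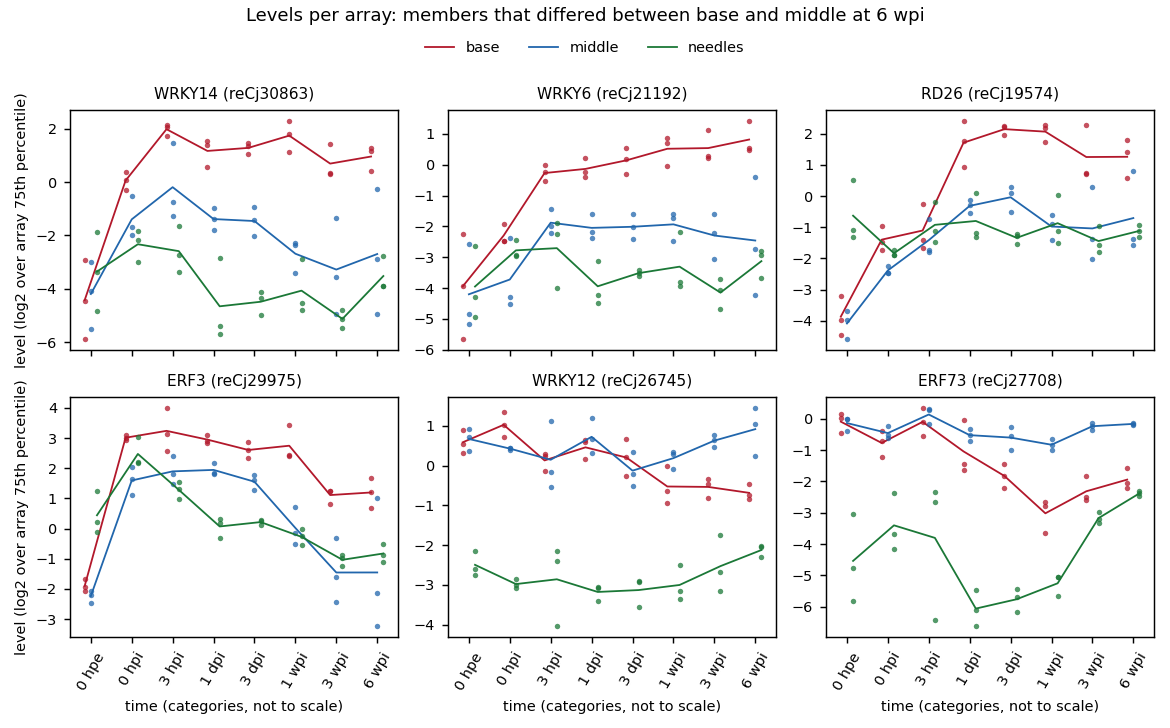
Levels of 6 members that differed between base and middle at 6 wpi, on every array (dots) with group means (lines), in log2 units relative to the array's 75th percentile, by time and part (red base, blue middle, green needles). WRKY14, WRKY6, RD26 and ERF3 stay high at the base, WRKY12 and ERF73 (reCj27708) are low there at 1 wpi and later, ERF73 already at 3 dpi, and the middle arrays of the first 4 are widely spread at 6 wpi.

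Early changes in needles lay below those of the base for a number of members. The change from 0 hpe to 0 hpi differed between needles and base for 12 of 46 members (6.53% of all targets and 7.95% of listed ones called), and in each of these the needle change lay below that of the base. RD26 and NAC100 did not rise in needles (-1.21 and -0.01). The count was 7 without base 0 hpe replicate 2, base 0 hpi replicate 1 or needles 0 hpi replicate 3, and 6 without base 0 hpi replicate 2. The ERF8 target reCj29018 showed the widest gap, with a needle change of 1.17 and a base change of 4.92 in their own fits. At 3 hpi 14 needle members were higher and 5 lower (9.52% and 14.1%), and all 5 were MYB targets chosen from clusters of base and middle: the myb-like target reCj26329 (-1.96), AS1, a leaf polarity factor (-1.39), both MYB4 targets (-1.29 and -1.15) and MYB16 (-1.01). Of the 13 members chosen from those clusters alone and tested in needles, 5 were lower and 0 higher at 3 hpi. Needle values did not choose them, but the clusters group targets of like course. Both MYB4 targets may also be pieces of the same transcript. Of all and of listed targets 4.95% and 5.6% were called lower there.

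At 6 wpi the needle changes were small. NAC100 read -0.54, -0.44 and -0.50 at 0 hpe and 0.32, 0.75 and 0.86 at 6 wpi (1.13 ± 0.17, adjusted p = 7.89e-05). CUC2 read 0.40, 0.64 and 0.18 and 1.77, 1.67 and 1.64 (1.28 ± 0.21, adjusted p = 0.000177). MYB50 read 1.13, 0.60 and 1.27 and 1.91, 1.63 and 2.50 (1.01 ± 0.24), with values of 0.81 and 0.77, under the size required, without needles 0 hpe replicate 2 and needles 6 wpi replicate 3. These 3 had been chosen from base and middle clusters, and their needle groups did not overlap. With slide as a fixed block none of the 3 was called (0.75, adjusted p = 0.127, for NAC100, 0.97, adjusted p = 0.188, for CUC2 and 1.11, adjusted p = 0.258, for MYB50), and of the members below only WRKY55 and NAC036 were. WRKY55 (2.29 ± 0.37), NAC036 (1.73 ± 0.23) and WRKY53 (1.18 ± 0.22) were higher too, although the first had returned to 0.53 at 3 wpi. The falls were those of ERF3 (-1.27 ± 0.29), MYB20, which in Arabidopsis promotes lignin formation (-1.15 ± 0.30), MYB102, a wound and dehydration responder (-1.12 ± 0.30), WRKY51 (-1.06 ± 0.36) and ERF9 (reCj31365; -1.06 ± 0.41). ERF9 passed narrowly (adjusted p = 0.0492) and was lost without any 1 of needles 0 hpe replicate 1 or 2 or needles 6 wpi replicate 1, 2 or 3 (-0.59 to -1.21). WRKY51 was lost without needles 0 hpe replicate 2 or needles 6 wpi replicate 2 or 3 (-0.87 to -1.08), ERF3 without needles 0 hpe replicate 2 (-0.86) and MYB102 without needles 6 wpi replicate 1 (-0.89). MYB20 and MYB102 did not pass the filter on the base and middle arrays and were not tested there.

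**Figure D5:**
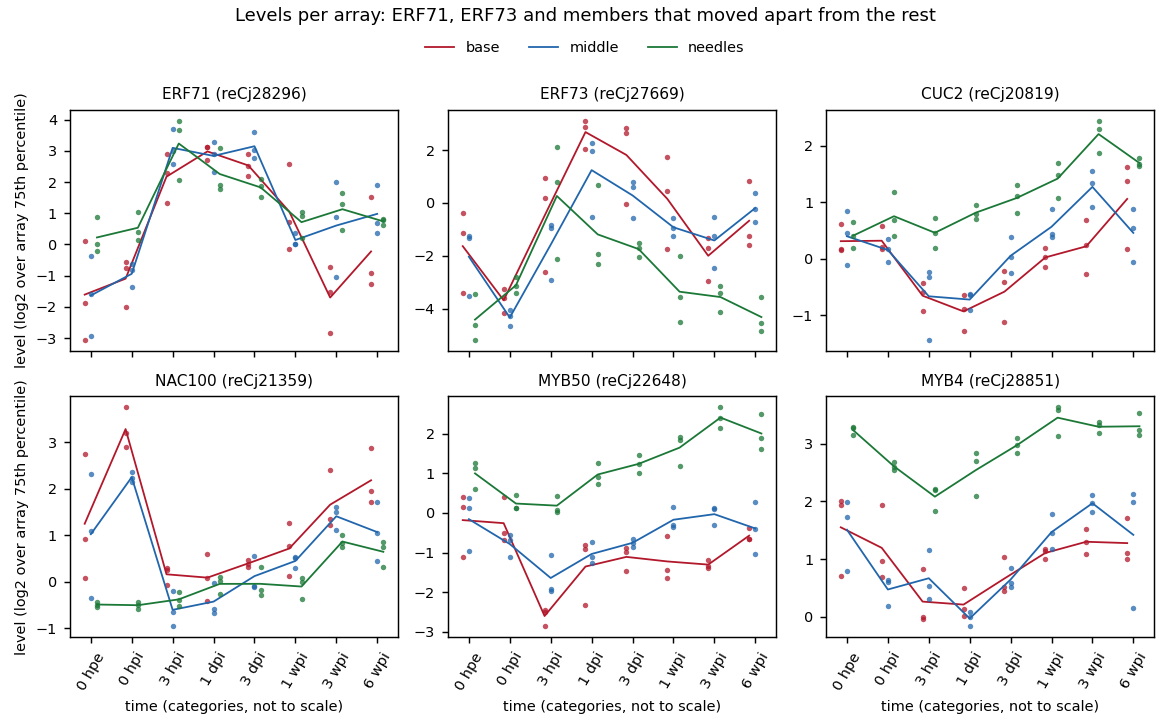
Levels of ERF71, ERF73 (reCj27669), CUC2, NAC100, MYB50 and MYB4 (reCj28851) on every array (dots) with group means (lines), in log2 units relative to the array's 75th percentile, by time and part (red base, blue middle, green needles). The ERF targets peak between 3 hpi and 3 dpi, and CUC2, NAC100 and MYB50 rise slowly in needles to 3 wpi.

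Needles and base were also compared before excision, and the share of members called was near that of the listed targets. At 0 hpe 8 members were higher and 7 lower in needles (25.2% of all targets and 30.4% of listed ones called), and after normexp 7 were higher and 4 lower. WRKY12 showed the widest gap, with -2.59, -2.16 and -2.74 in needles and 0.32, 0.56 and 0.89 at the base (-3.08 ± 0.35, adjusted p = 1.27e-09). MYB82 was lower by 2.85 (-2.82, -2.58 and -3.05 in needles), ERF73 (reCj27669) by 2.77 and NAC100 by 1.74. The ERF73 call was lost without base 0 hpe replicate 2 (-2.14) or needles 0 hpe replicate 3 (-2.39), and that of NAC100 fell under the size required without base 0 hpe replicate 1 (-0.99). RD26 was higher in needles (3.24 ± 0.52, adjusted p = 1.36e-06), and so was ERF3 (2.34 ± 0.50, adjusted p = 0.000136). MYB16 and both MYB4 targets were higher by 1.90, 1.69 (reCj28851) and 1.61 (reCj27034). At 6 wpi 7 members were higher and 23 lower in needles (30.9% and 35%), and RD26 (-2.38) and ERF3 (-2.02) stood below the base.

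Related pathways were counted from the same study lists by description. The 4 ethylene targets were the ethylene-forming enzyme, 2 oxygenase matches and ETO1, which restrains ethylene synthesis. The ethylene-forming enzyme rose by 3.65 (log2) at 0 hpi and 6.68 at 6 wpi at the base. The oxygenase matches stood at 5.65 (reCj26915, called) and -1.30 (reCj31127, not called) at 0 hpi and were called higher at 6 wpi, and ETO1 was called at neither time (0.11 and 0.48). Of the jasmonate targets (matches described as jasmonate, lipoxygenase, allene oxide or oxophytodienoate), 3 of 9 rose and 0 fell at the base at 0 hpi and 2 of 9 rose and 3 fell at 6 wpi. Of all and of listed targets 7.19% and 14.3% were higher at 0 hpi, and 17.5% and 18.4% were higher and 12.7% and 10.7% lower at 6 wpi. Needles showed 4 of 13 higher at 0 hpi (5.6% and 9.97%). For phenylpropanoid and flavonoid enzymes, 4 of 14 rose and 5 fell at the base at 3 hpi, against 14.8% and 26.2% higher and 16.1% and 17.2% lower among all and listed targets. At 6 wpi 6 of 14 rose and 1 fell, with a median of 1.36 against 0.15 for all targets. In needles at 3 hpi 3 of 18 rose and 7 fell (4.57% and 8.52% higher and 4.95% and 5.6% lower).

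The 4 targets set apart were these. The target reCj12297, whose best match is WRKY29 with an E value of 1.97 and so no usable match, was high in needles at 0 hpe (5.31, 4.62 and 5.36) and low at the base (-3.72, -0.69 and -0.69), a difference of 6.79 ± 0.66, adjusted p = 2.99e-11 and the widest gap of the 53 in that comparison. It was lower in needles at 3 wpi (1.73, 1.77 and 3.88; -2.63) and 6 wpi (-1.60). The target reCj17643, a kinase match described as WRKY19 (E value 0.000794), fell at the base at 3 hpi (-2.94 ± 0.49, adjusted p = 6.32e-06) and was back at 0.54 by 1 wpi. The target reCj24846, with NAC6 at an E value of 5.54, fell at the base by 1.58 at 0 hpi. The release factor reCj12486 (ERF1-3) was called at no time against 0 hpe in any part.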

How the data were processed

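Each of the 72 samples was hybridised to a 1-colour Agilent array. The deposited intensity values are processed signals that the authors obtained with Feature Extraction 11.5, background-subtracted and not normalized between arrays. The deposited log2 value table holds the authors' processed values, which all-spot averages centred on each probe's mean matched within 0.004506; it served as an alternative. The authors' lists and clusters were used for membership only. Levels were the log2 mean signal of a target's spots minus the array's 75th percentile. Tested targets had no non-uniformity flag, every spot positive and significant, and a mean signal above 10 on all arrays of the dataset: 11909 for base and middle, 13397 for needles and 11248 for all. This reading of the flags gave the list sizes of the study, and the stricter reading, well above background, was an alternative. Fits used limma 3.58.1 in R 4.3.3, with 1 mean per group and Benjamini-Hochberg adjustment over all targets tested, and were tested on simulated data. Normexp (offset 50) was run on median signals. Other alternatives were no filter, quantile normalization, only the arrays compared, slide or replicate number as a block, and each array left out.

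The members and lists were chosen with earlier results of these data known. Per-array values are given for up to 3 rises and 3 falls per family. Every same-numbered pair of base and middle deviations correlated above 0.1 at 0 hpe, 3 dpi and 6 wpi only, with 0.107 to 0.288 at 6 wpi. The main fits used no pairing, and replicate number entered only as a block among the alternatives. The main tests at 0 hpe and of the differences between changes thus leave out the likeness of same-numbered arrays. Probe sequences were not used here.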

Additional observations from a re-analysis of the deposited data

Results flagged for a closer look

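In 7 members the change from 0 hpe to 6 wpi differed between base and middle by limma's test of that difference. With 47 members tested, their share was close to the 17.4% of all targets and 14.6% of listed ones called. WRKY14 was also on the list of the first component, which the study related to base against middle. The base change exceeded that of the middle for WRKY14 by 3.88 (log2), WRKY6 by 3.02, ERF-1 (reCj25854) by 2.45, ERF3 by 2.31 and NAC036 by 1.55, and it was below it for ERF73 (reCj27708; -1.82) and WRKY12 (-1.52). The ERF73 call held without each array in turn. WRKY14 lost its call without middle 6 wpi replicate 3 (2.76, adjusted p = 0.0866), as did WRKY12 (-1.25, adjusted p = 0.0624), and ERF-1 lost it without middle 6 wpi replicate 1 (2.07, adjusted p = 0.0565). WRKY6 lost it without base 0 hpe replicate 3, base 6 wpi replicate 2, middle 0 hpe replicate 1 or middle 6 wpi replicate 1 or 3 (2.14 to 2.88), and NAC036 and ERF3 without 7 and 8 of the 12 arrays.

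In 12 members the change from 0 hpe to 0 hpi in needles lay below that at the base by the same test: ERF8 (reCj29018; -3.74), RD26 (-3.68), WRKY55 (-3.65), ERF-1 (reCj30717; -3.46), WRKY14 (-3.45), ERF9 (reCj32003; -3.12), ERF3 (-2.88), NAC036 (-2.65), ERF-1 (reCj27288; -2.52), ERF9 (reCj31365; -2.21), NAC100 (-2.05) and WRKY35 (-1.74). With 46 members tested, the shares of all and of listed targets called were 6.53% and 7.95% in either direction, and 3.46% and 5.55% lower.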

How the results depend on the processing

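Values that changed with the processing were these. Background shares were given for the main fit only, so the counts below are not to be read against them. With every spot well above background, 35 members were tested in base and middle, against 47 in the main fit. The counts called were 13 (base, 6 wpi), 1 (base against middle, 3 hpi), 9 (base against middle, 6 wpi) and 4 (difference of the changes to 6 wpi). With normexp, 7 were called in needles at 6 wpi. With only the arrays compared, 16 were called in the middle at 0 hpi, 0 there at 6 wpi, and 0, 6 and 2 for base against middle at 3 hpi, at 6 wpi and for the changes. With slide as a fixed block the counts were 6 (base, 6 wpi), 11 and 1 (middle, 0 hpi and 6 wpi) and 2 (needles, 6 wpi). The replicate block gave 9 for base against middle at 3 hpi, 7 of them higher. Deviations of same-numbered arrays correlated there at -0.175 to 0.236, and whether the numbers pair the arrays is not known. The block gave 20 at 6 wpi and 10 for the changes, and moved no other count past 1.5 times. Without the dim base 1 wpi arrays 2 and 3 the count at 1 wpi was 3. The cause was not tested.

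Leaving out 1 array at a time gave 23 to 26 (base, 0 hpi), 33 to 37 (3 hpi) and 20 to 25 (6 wpi), 13 to 23 and 1 to 8 (middle, 0 hpi and 6 wpi), 22 to 25 and 8 to 12 (needles), 0 to 9, 18 to 28 and 11 to 23 (base against middle at 3 hpi, 1 wpi and 6 wpi), 2 to 14 (changes), 13 to 16 (needles against base at 0 hpe) and 6 to 12 (needle minus base change). No result reversed its direction. Quantile normalization moved the median of all targets from 0.145 to -0.049 at the base at 6 wpi and from 0.093 to -0.082 for base against middle at 1 wpi. With no filter these medians were 0.506 and 0.398, that of base against middle at 6 wpi went from 0.121 to 0.455 and that of the changes from 0.133 to 0.457. The number of arrays limits the precision.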
